A study of Rattus norvegicus with 16 samples.

Results

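Irf7, Ifit1, Ifi27, Mx1, RT1-A2, RT1-M1-4 and B2m are 7 rat genes of the interferon response and of antigen presentation by major histocompatibility complex (MHC) class I. They are 7 of the 11344 genes measured well above background in this study of the hippocampus. Each was found through the RefSeq name of its probe, and the brightest probe stands for a gene that has more than 1; of the 7, B2m has such a further probe. The genes were selected on their measured log2 differences between the groups of this study, the depression-susceptible minus control difference among them. For these 7 genes that difference is therefore given as a description without a p-value. The p-values of the other comparisons belong to genes chosen with earlier results known, so those p-values and calls are descriptions too.

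The study measured hippocampal RNA of male Sprague-Dawley rats on 16 single-colour Agilent arrays in 4 groups of 4. Chronic mild stress lasting 8 weeks came before 3 of the groups, which the labels call depression-susceptible, anxiety-susceptible and insusceptible, and the last group is control. All groups are labelled with a body weight of 250 g and none is labelled with a genetic change. The 3 stressed groups carry the names of behavioural classes, the strain is outbred, and the controls were not stressed. How the stressed rats were assigned to classes, their age, and whether the 4 arrays of a group came from 4 animals are not given in the sources used here.

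Arrays that share a scan time were taken as a slide, which gave 4 slides. Slides 1 and 2 (day 1 of scanning) carried 2 depression-susceptible arrays and 2 control arrays each, with the depression-susceptible arrays in the later positions on both. Slide 3 held all anxiety-susceptible arrays and slide 4 all insusceptible arrays, and both were scanned on day 2. Arrays of a group on a shared slide differed by less than, or about as much as, repeated spots of a probe within an array (a ratio of 0.731 to 1.04 over 16 pairs), whereas arrays of a group on slides 1 and 2 differed by 1.99 to 2.42 times that noise (8 pairs). Arrays of a group on a slide were therefore counted as 1 sample. This leaves 2 samples for the depression-susceptible group, a single sample each for the anxiety-susceptible and insusceptible groups, and 2 samples for the controls. Standard errors and p-values measure the spread between slides, which may be technical, and the groups with a single sample are assumed to vary like the others. For those groups, the group, the slide and the scan day cannot be told apart. Levels below are log2 processed signals relative to the 75th percentile of the same array, which was 1077 to 1248 signal units on the arrays of day 2 and 2997 to 3382 on those of day 1. A level of 0 therefore means a signal at that percentile, and levels of different genes are not compared. Rises and falls in the groups of day 2 are likewise relative to the rest of the array.

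Interferons are secreted when a cell senses foreign nucleic acid. They act through cell surface receptors, kinases and transcription factors to switch on a shared set of antiviral and antigen-presenting genes. IRF7 is a transcription factor that drives type I interferon genes and is itself induced by interferon. IFIT1 binds viral RNA, MX1 is a dynamin-like GTPase that blocks viral replication, and IFI27 is a small membrane protein strongly induced by type I interferon. RT1 is the MHC of the rat. RT1-A2 encodes a classical class I heavy chain, which presents peptides to T cells and pairs with beta-2-microglobulin, the product of B2m. RT1-M1-4 belongs to the non-classical class I genes of the M region; in mouse, related M-region genes are known from vomeronasal sensory neurons. In brain, class I molecules occur on microglia, endothelium and some neurons.

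The DNA motif through which interferon-activated transcription factors are known to act, the interferon-stimulated response element, has a core of GAAA, any 2 bases and GAAA. It was searched on both strands of the 300 bases around each gene start (250 before, 50 after) in RefSeq promoters of build GRCr8, and on the opposite strand it reads TTTC, any 2 bases and TTTC. It was found in 3.77% of the 27457 promoters, in 27 of the 44 interferon-stimulated genes with a promoter there (61.4%), and in 3 of 5 of the genes described here. The matches are shown because they set Irf7, B2m and Ifi27 apart from the RT1-A2 and Mx1 promoters, whose windows do not hold these letters. Ifit1 and RT1-M1-4 were not searched. Each line runs 5′ to 3′ along the strand of the gene and the capitals mark the match.
Irf7: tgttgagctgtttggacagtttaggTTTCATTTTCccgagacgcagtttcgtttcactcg
B2m: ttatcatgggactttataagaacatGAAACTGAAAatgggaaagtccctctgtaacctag
Ifi27, first match: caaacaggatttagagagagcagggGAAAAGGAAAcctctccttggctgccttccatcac
Ifi27, second match: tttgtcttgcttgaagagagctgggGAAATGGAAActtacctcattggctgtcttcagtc
The Irf7 stretch is chr1:205800058-205800117 on the minus strand, with its match starting 69 bases before the gene start. The B2m stretch is chr3:129549155-129549214 on the plus strand, starting its match 150 bases before the gene. The Ifi27 stretches are chr6:128355118-128355177 and chr6:128355203-128355262 on the plus strand, with matches 169 and 84 bases before the gene. A match is a string of letters and says nothing of binding. The genes that hold it differ in the order of their levels across the groups: among the 6 samples, Irf7 and Ifi27 correlated at -0.25, a description over samples that share slides.

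Irf7 was lower in depression-susceptible and anxiety-susceptible hippocampus than in control hippocampus and stood highest in insusceptible hippocampus. Its log2 level was -1.20, -1.10, -1.07 and -1.15 on the 4 depression-susceptible arrays, -0.90, -0.84, -0.82 and -0.93 on the anxiety-susceptible arrays, -0.08, -0.11, -0.17 and -0.19 on the insusceptible arrays, and -0.42, -0.30, -0.42 and -0.43 on the control arrays. No 2 groups overlapped. The depression-susceptible minus control difference was -0.74 (SE 0.08, 1.67-fold lower), and it was -0.75 within slide 1 and -0.72 within slide 2. Relative to control, Irf7 fell by 0.48 in the anxiety-susceptible group (SE 0.09, limma adjusted p = 0.033). The insusceptible minus control difference was 0.26 (SE 0.09, adjusted p = 0.11) and did not pass the threshold of 0.05; with arrays scaled to their median it was -0.18. Leaving out any 1 of the 4 slide-1 and slide-2 samples ended the anxiety-susceptible call (adjusted p 0.087 to 0.12).

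**Figure D1:**
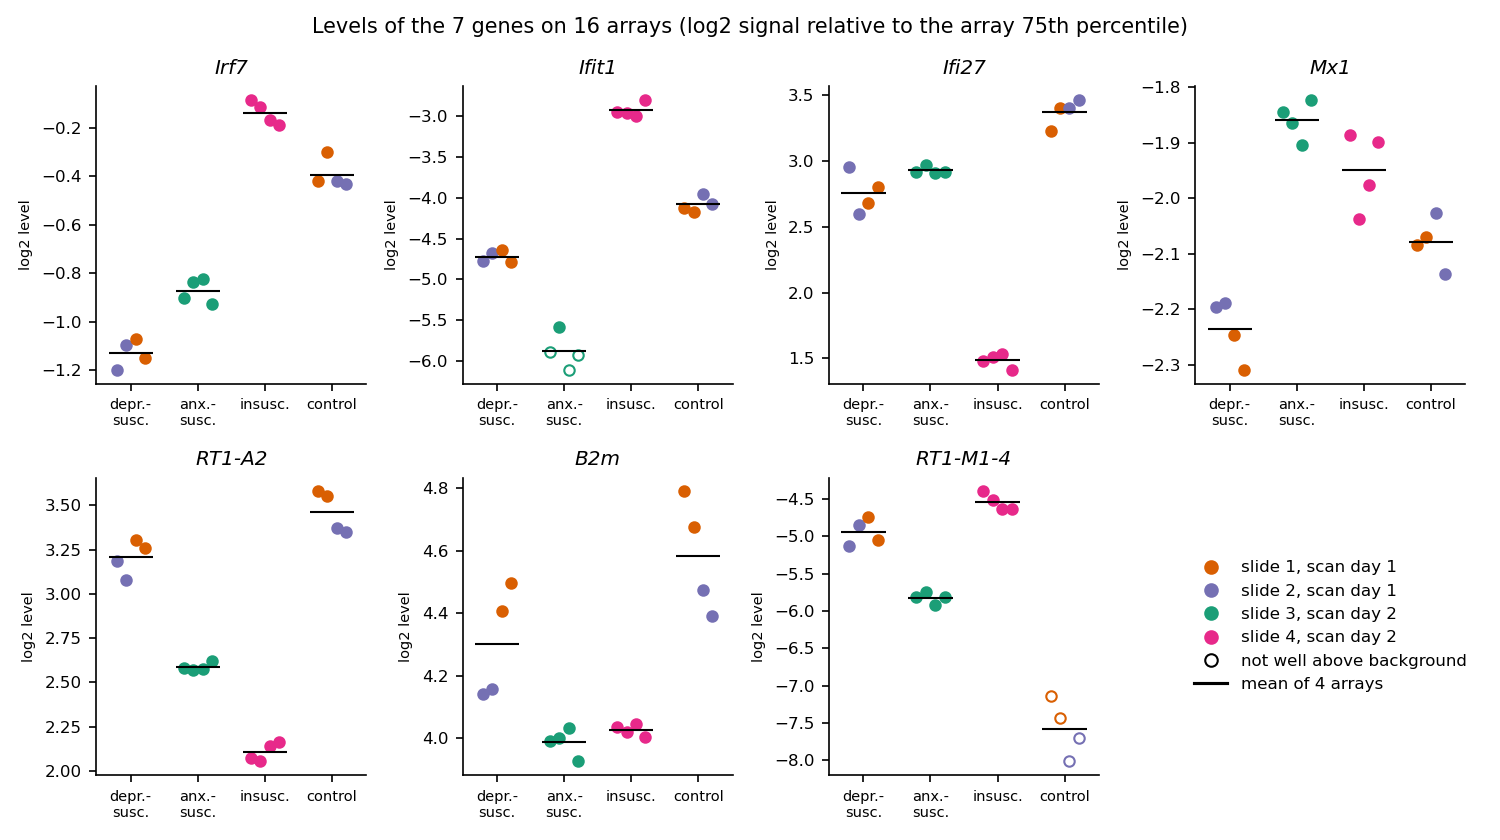
Log2 level of each of the 7 genes on each array, relative to the 75th percentile of the array (y axis, a different range in each panel), for the 3 stressed groups and control (x axis); colours mark slides, open circles mark arrays on which the probe was not well above background, and lines are means of 4 arrays. RT1-M1-4 was not well above background on any of the 4 control arrays, and B2m differed between slides 1 and 2 by about as much as between the groups on them.

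Ifit1 took the widest range of the interferon-induced genes, a ranking that rests on its dim anxiety-susceptible level. Without that group, its largest difference was -1.80 (depression-susceptible minus insusceptible), beside -1.89 for Ifi27 (insusceptible minus control). The level of Ifit1 was -4.78, -4.68, -4.64 and -4.79 on the depression-susceptible arrays, -5.89, -5.58, -6.11 and -5.93 on the anxiety-susceptible arrays, -2.95, -2.96, -3.0 and -2.80 on the insusceptible arrays, and -4.13, -4.17, -3.96 and -4.08 on the control arrays. No groups overlapped, and the order was insusceptible, control, depression-susceptible, anxiety-susceptible. In the anxiety-susceptible group the probe was well above background on 1 of the 4 arrays, with processed signals of 16.4 to 26.0 units, so that its level there is close to a bound.

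The depression-susceptible minus control difference of Ifit1 was -0.64 (SE 0.08, 1.56-fold lower), with -0.57 within slide 1 and -0.71 within slide 2. Ifit1 rose by 1.16 in the insusceptible group against control (SE 0.10, 2.23-fold, limma adjusted p = 0.011), and it was 0.72 to 1.06 higher under the other scalings and background correction. The unscaled signals were 156.5 to 177.5 units on insusceptible arrays and 167.4 to 197.1 units on control arrays, so the rise is relative to the rest of the array. Ifit1 fell by 1.79 in the anxiety-susceptible group against control (SE 0.10, adjusted p = 0.0066), a size that rests on 3 of 4 arrays not well above background; with the normexp background correction the difference was -0.24 and not called (adjusted p = 0.095). Ifit1 was also the only 1 of the 7 genes called between stressed groups: it was 2.95 lower in the anxiety-susceptible than in the insusceptible group (SE 0.12, adjusted p = 0.033), with the same limit. That call ended under normexp (-1.30, adjusted p = 0.089), without the filter on dim probes (adjusted p = 0.12), and without any 1 of the slide-1 and slide-2 samples (adjusted p 0.15 to 0.17).

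Ifi27 was lower than control in every stressed group and lowest in the insusceptible group. Its level was 2.96, 2.60, 2.68 and 2.80 on the depression-susceptible arrays, 2.92, 2.97, 2.91 and 2.92 on the anxiety-susceptible arrays, 1.48, 1.51, 1.54 and 1.41 on the insusceptible arrays, and 3.23, 3.40, 3.41 and 3.47 on the control arrays. The depression-susceptible and anxiety-susceptible arrays overlapped each other, and no stressed array reached the control range. Against control, Ifi27 fell by 1.89 in the insusceptible group (SE 0.10, 3.71-fold, limma adjusted p = 0.0061), and this call remained under every alternative tried for it. It fell by 0.45 in the anxiety-susceptible group (SE 0.10, adjusted p = 0.045), a call that ended under quantile normalization (-0.05, adjusted p = 0.78), without control array 2 or 3, depression-susceptible array 1, 2 or 4 (adjusted p 0.052 to 0.090), or without any 1 of the slide-1 and slide-2 samples. The depression-susceptible minus control difference was -0.62 (SE 0.08), with -0.57 within slide 1 and -0.66 within slide 2, and -0.39 under quantile normalization.

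Choroid plexus markers, a list of 12 genes of an epithelium that lies within the brain ventricles next to the hippocampus, moved with the groups too. Their summed level (in multiples of the array's 75th percentile) was 29.0 to 33.9 on depression-susceptible arrays, 120.1 to 139.4 on anxiety-susceptible arrays, 12.2 to 12.7 on insusceptible arrays and 111.3 to 129.3 on control arrays. All 12 fell in the depression-susceptible and insusceptible groups and 11 in the anxiety-susceptible group, where the exception was Ttr, the brightest of them (0.53 above control), and the summed level overlapped control. Of all genes, 3.90%, 16.5% and 18.9% fell in the depression-susceptible, insusceptible and anxiety-susceptible groups. Of 8 red blood cell markers, 6 rose and 1 fell in the depression-susceptible group, 0 rose and 3 fell in the anxiety-susceptible group, and 5 rose and 1 fell in the insusceptible group. The shares that rose and fell were 75% and 12.5%, 0% and 37.5%, and 62.5% and 12.5% in the same order. Those of all genes were 4.80% and 3.90%, 9.91% and 18.9%, and 12.2% and 16.5%. The summed levels of the red blood cell markers were 25.5 to 27.4, 1.01 to 1.07 and 2.68 to 2.77 in those groups, against 1.44 to 1.49 in control. The part of choroid plexus and red blood cells in the differences of Ifi27 or of the other genes was not tested. In bulk tissue, fewer cells of a type and less RNA per cell cannot be told apart.

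Mx1 differed little between groups. Its level was -2.31 to -2.19 on depression-susceptible arrays (median -2.22), -1.90 to -1.82 on anxiety-susceptible arrays (median -1.85), -2.04 to -1.89 on insusceptible arrays (median -1.94) and -2.14 to -2.03 on control arrays (median -2.08). The depression-susceptible arrays lay lowest, and the insusceptible arrays overlapped both the anxiety-susceptible and the control arrays. The differences from control were -0.16 for the depression-susceptible group, 0.22 for the anxiety-susceptible group (adjusted p = 0.15) and 0.13 for the insusceptible group (adjusted p = 0.34), with SE 0.08 to 0.09. The last 2 turned to -0.16 and -0.31 when arrays were scaled to their median (adjusted p = 0.20 and 0.047), and the insusceptible one also turned to -0.076 under quantile normalization, so that Mx1 has no settled direction there.

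The classical class I heavy chain RT1-A2 was lower in all stressed groups. Its level was 3.18, 3.08, 3.30 and 3.26 on the depression-susceptible arrays, 2.58, 2.57, 2.57 and 2.62 on the anxiety-susceptible arrays, 2.07, 2.05, 2.14 and 2.16 on the insusceptible arrays, and 3.58, 3.55, 3.37 and 3.35 on the control arrays. No groups overlapped, and the groups scanned on day 2 were lowest. RT1-A2 fell by 1.36 in the insusceptible group against control (SE 0.14, 2.56-fold, limma adjusted p = 0.014), with -1.80 to -1.0 under the other scalings and background correction. It fell by 0.87 in the anxiety-susceptible group (SE 0.14, 1.83-fold, adjusted p = 0.025), a call that ended without any 1 of the slide-1 and slide-2 samples (adjusted p 0.053 to 0.076) and without the filter on dim probes (adjusted p = 0.054). The depression-susceptible minus control difference was -0.26 (SE 0.12), with -0.28 within slide 1 and -0.23 within slide 2, and -0.02 under quantile normalization.

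B2m, the light chain that every class I molecule needs, was bright in all samples and lower in the stressed groups, and its anxiety-susceptible and insusceptible differences from control did not pass the threshold. Its level was 4.14, 4.16, 4.41 and 4.50 on the depression-susceptible arrays, 3.99, 4.0, 4.03 and 3.93 on the anxiety-susceptible arrays, 4.04, 4.02, 4.04 and 4.01 on the insusceptible arrays, and 4.79, 4.68, 4.48 and 4.39 on the control arrays. The depression-susceptible and control arrays overlapped across slides, although within each slide both depression-susceptible arrays lay below both control arrays. The differences from control were -0.28 in the depression-susceptible group (SE 0.17 in a fit that leaves slide out, and -0.28 within slide 1 and within slide 2), -0.60 (SE 0.20, adjusted p = 0.099) in the anxiety-susceptible group and -0.56 (SE 0.20, adjusted p = 0.11) in the insusceptible group. Under quantile normalization these were 0.060, -0.11 and -0.073, whereas with arrays scaled to their median the last 2 were -0.98 and -1.0 and were called (adjusted p = 0.025 and 0.023).

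A further B2m probe is spotted 10 times on each array, which shows how precisely a level is read. It gave 4.12, 4.20, 4.40 and 4.44 on the depression-susceptible arrays, 3.99, 3.99, 3.98 and 3.94 on the anxiety-susceptible arrays, 4.0, 4.02, 3.95 and 3.99 on the insusceptible arrays, and 4.73, 4.69, 4.44 and 4.42 on the control arrays. The SD between its spots was 0.029 to 0.12. The depression-susceptible minus control difference was -0.29 within slide 1 and -0.27 within slide 2, and slide 1 read higher than slide 2 by about the same amount in either group.

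RT1-M1-4 went the other way from RT1-A2 and B2m. Its level was -5.13, -4.85, -4.74 and -5.04 on the depression-susceptible arrays, -5.81, -5.75, -5.92 and -5.81 on the anxiety-susceptible arrays, -4.39, -4.52, -4.63 and -4.64 on the insusceptible arrays, and -7.14, -7.44, -8.02 and -7.70 on the control arrays. No groups overlapped, and all stressed arrays lay above all control arrays. The probe was well above background on all 12 stressed arrays and on none of the 4 control arrays, so differences from control are lower bounds. For the bound, a control array counts with its own signal or, if higher, the dimmest signal called well above background on it. With the processing used throughout, RT1-M1-4 was at least 4.91-fold higher in the depression-susceptible group. Its probe passed the filter on dim probes only through the stressed arrays, so that it entered the tests because it was higher there.

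Against control, with the processing used throughout, RT1-M1-4 was at least 2.66-fold higher in the anxiety-susceptible group and at least 6.46-fold higher in the insusceptible group. The unscaled signals were 91.5 to 120.5 units on depression-susceptible arrays, 18.7 to 23.2 on anxiety-susceptible arrays, 49.6 to 58.2 on insusceptible arrays and 11.8 to 21.2 on control arrays. The anxiety-susceptible and control signals thus overlapped before scaling, and the dimmest signal called above background was itself lower on the anxiety-susceptible arrays (9.35 to 12.3 units, against 15.7 to 21.7 on control arrays). Under normexp the log2 differences were 0.97, 1.21 and 1.75 in the depression-susceptible, anxiety-susceptible and insusceptible groups. These lie below the log2 bounds of 2.30, 1.41 and 2.69, so the bounds do not hold under that background correction. RT1 genes have close copies, and because the probe sequence was not used here, which copies bind the probe is uncertain.

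**Figure D2:**
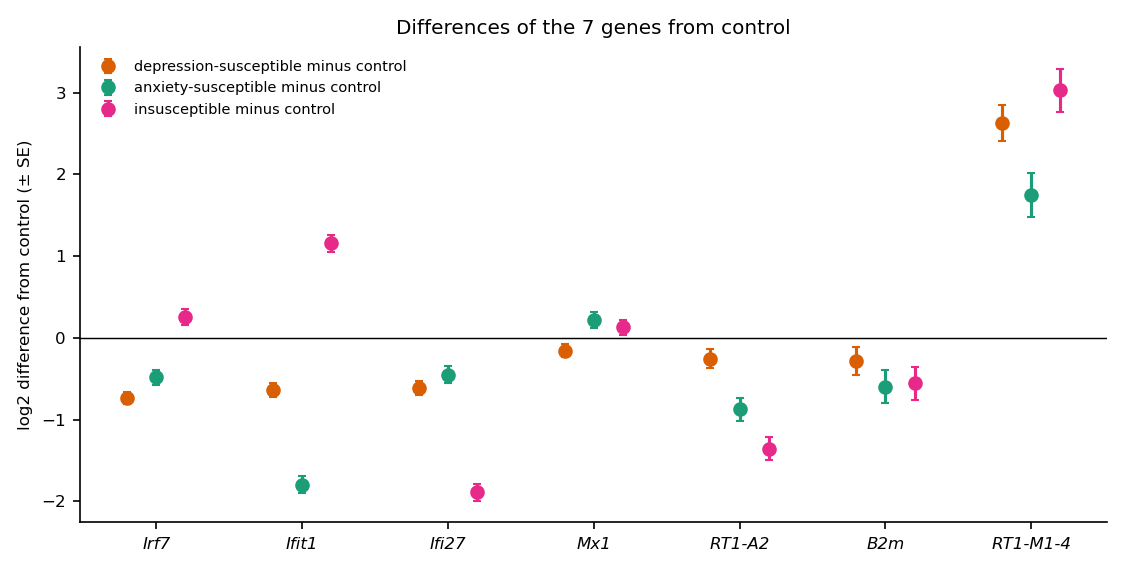
Log2 difference from control (y axis) of the 7 genes (x axis) for each stressed group; bars are the SE of the limma fit on 6 samples. RT1-M1-4 alone was above 0 in all 3 comparisons, RT1-A2, Ifi27 and B2m were below 0 in all 3 (B2m turned to 0.060 in the depression-susceptible group under quantile normalization), and Irf7 and Ifit1 lay above 0 in the insusceptible group alone (Irf7 turned to -0.18 there under median scaling).

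Between depression-susceptible and control arrays, 4.80% of all genes tested were higher and 3.90% lower at an adjusted p under 0.05. Calls of the 7 genes are not counted there, since this difference was known when the genes were chosen. Between anxiety-susceptible and control arrays 1 of the 7 genes was higher (RT1-M1-4) and 4 were lower, where 9.91% and 18.9% of all genes were. Between insusceptible and control arrays 2 were higher (Ifit1 and RT1-M1-4) and 2 were lower (Ifi27 and RT1-A2), where 12.2% and 16.5% of all genes were. The median difference of the 7 genes was -0.28, -0.48 and 0.13 in the depression-susceptible, anxiety-susceptible and insusceptible groups, beside -0.062, -0.12 and -0.061 over all genes. Arrays of a stressed group and of control did not overlap for 6, 7 and 6 of the 7 genes in the same order, where this held for 42.8%, 67.9% and 69.0% of all genes. The genes were selected on differences between the groups, so nothing is read from these counts or from those between stressed groups below. RT1-M1-4 counts among the higher genes although its probe passed the filter on dim probes only through the stressed arrays.

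Between the depression-susceptible and the insusceptible group 0 of the 7 genes passed limma's threshold, where 0.106% of all genes did; 5 of the 7 had an unadjusted p under 0.05, where 29.5% of all genes did. Irf7 was 0.99 lower, Ifit1 was 1.80 lower, Ifi27 was 1.27 higher and RT1-A2 was 1.1 higher in the depression-susceptible group (adjusted p 0.069 to 0.078). These 4 passed under quantile normalization, median scaling, normexp, no filter and the deposited value table (adjusted p 0.0045 to 0.049), settings that called 885, 3461, 7020, 3979 and 398 probes in place of 15. Without any 1 of the slide-1 and slide-2 samples the 4 were not called (adjusted p 0.14 to 0.24). Arrays of the 2 groups did not overlap for 7 of the 7 genes, where this held for 57.2% of all genes. Between the anxiety-susceptible and the insusceptible group 1 gene, Ifit1, passed, where 0.106% of all genes did, and arrays did not overlap for 5 of the 7 (49.3% of all genes). Between the depression-susceptible and the anxiety-susceptible group 0 of the 7 passed limma's threshold, where 0.344% of all genes did, 4 had an unadjusted p under 0.05 (30.5% of all genes), and arrays did not overlap for 6 (57.1% of all genes).

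**Figure D3:**
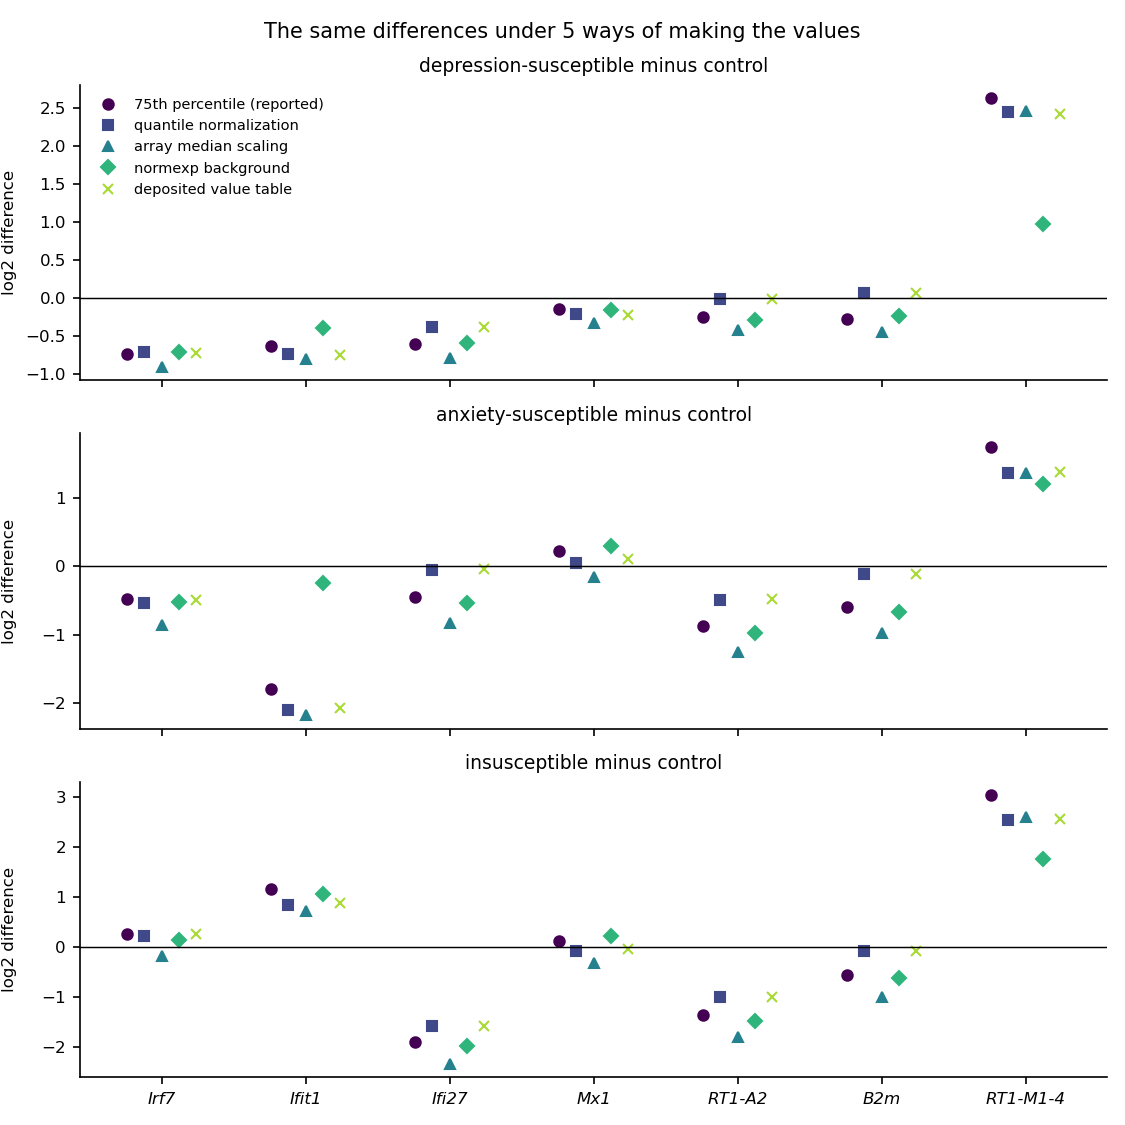
Log2 difference from control (y axis) of the 7 genes (x axis) in each stressed group under 5 ways of making the values: the 75th percentile scaling used throughout, quantile normalization, array median scaling, normexp background correction and the deposited value table. Irf7 in the depression-susceptible and anxiety-susceptible groups, Ifi27 and RT1-A2 in the insusceptible group and RT1-M1-4 in all groups kept their side of 0, whereas B2m and Mx1 crossed or approached it.

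In the wider list of interferon-stimulated genes, calls fell on both sides, at shares below those of all genes in the anxiety-susceptible and insusceptible groups. Of its 42 measured genes, 3 rose and 6 fell in the depression-susceptible group against control, 2 rose and 7 fell in the anxiety-susceptible group, and 5 rose and 4 fell in the insusceptible group. These are 7.14% and 14.3% in the first group (4.80% and 3.90% of all genes), 4.76% and 16.7% in the second (9.91% and 18.9%) and 11.9% and 9.52% in the last (12.2% and 16.5%). Their median differences were -0.16, -0.18 and 0.058, beside the all-gene medians above. Lgals3bp, a secreted galectin-binding glycoprotein, fell by 1.13, 0.65 and 0.99 in the depression-susceptible, anxiety-susceptible and insusceptible groups (SE 0.11 to 0.13). Ube2l6, the conjugating enzyme for ISG15, fell by 0.53, 0.82 and 0.77 (SE 0.08 to 0.10). Isg15, a ubiquitin-like modifier, fell by 0.84 in the depression-susceptible group and 0.48 in the anxiety-susceptible group, and its difference was -0.43 in the insusceptible group (adjusted p = 0.056); under normexp the last 2 differences were -0.14 and -0.12 and not called.

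Other interferon-stimulated genes went up. Ifi44, an antiviral protein of the cytoplasm, rose by 1.15, 1.35 and 1.53 in the depression-susceptible, anxiety-susceptible and insusceptible groups (SE 0.14 to 0.17). Isg20, an exonuclease that degrades viral RNA, rose by 1.35 and 1.39 in the anxiety-susceptible and insusceptible groups. Those rises are relative to arrays whose 75th percentile was 1077 to 1248 units, against 2997 to 3382 units on day 1. The difference of Isg20 was 0.71 in the depression-susceptible group (adjusted p = 0.076). The chemokine genes Cxcl11 and Cxcl10, whose products draw T cells through the receptor CXCR3, rose in the depression-susceptible group by 1.76 (SE 0.10) and 0.89 (SE 0.08). Cxcl11 fell by 0.92 in the anxiety-susceptible group and Cxcl10 by 1.01 in the insusceptible group; under normexp these were 0.27 and -0.32 and not called. Bst2, which tethers budding virus, and Rtp4 fell in the depression-susceptible group by 1.29 and 1.12 (SE 0.19 each). Without 1 of the 4 slide-1 and slide-2 samples, Cxcl11 alone of the rises and 0 or 1 of the falls of this list stayed called in the depression-susceptible group, and 0 to 2 rises with 0 to 3 falls stayed called in the other 2 groups. Array median scaling gave 17, 26 and 21 falls in the depression-susceptible, anxiety-susceptible and insusceptible groups, whereas normexp gave 4, 8 and 13 rises and 7, 6 and 4 falls. Median scaling also moved the median of all probes to -0.21, -0.43 and -0.43 in these groups, and normexp moved it to -0.058, 0.092 and 0.14. Nothing is therefore read from list counts under these settings, here or in the lists below.

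Upstream of these genes, 2 signalling components rose in all stressed groups. Irf3, the transcription factor that starts interferon production, had a level of 0.87 in the depression-susceptible, 1.33 in the anxiety-susceptible and 1.27 in the insusceptible group, against -0.30 in control. It rose by 1.16, 1.63 and 1.57 (SE 0.11 to 0.13; adjusted p 0.013 in the first). Ikbke, a kinase that activates IRF3 and IRF7, stood at -3.21, -2.47 and -2.50 in those groups against -4.54 in control, a rise of 1.33, 2.07 and 2.05 (SE 0.16 to 0.19). The rises of Irf3 and Ikbke kept their sign and call under quantile normalization, median scaling and normexp. Leaving out any 1 of the 4 slide-1 and slide-2 samples ended both depression-susceptible calls and neither of the others.

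Of the 28 signalling genes measured, 2 rose and 0 fell in the depression-susceptible group, 4 rose and 2 fell in the anxiety-susceptible group, and 4 rose and 1 fell in the insusceptible group. These are 7.14% and 0%, 14.3% and 7.14%, and 14.3% and 3.57%, beside the all-gene shares above. Median scaling gave 3 rises and 13 falls and 2 rises and 13 falls in the last 2 groups, where it moved the median of all probes to -0.43. Socs3, a feedback inhibitor of cytokine signalling, rose by 0.93 and 0.81 in the anxiety-susceptible and insusceptible groups (SE 0.12 each). As for Isg20, those rises are relative to the rest of the array. The difference of Socs3 was 0.33 in the depression-susceptible group (adjusted p = 0.12). Under quantile normalization the insusceptible difference of Socs3 was 0.36 and not called. Ifnar1, a chain of the type I interferon receptor, fell by 0.70 in the insusceptible group (SE 0.14). The list's median differences were 0.050, -0.032 and -0.0023 in the 3 groups. Ifnb1 and Ifng, which encode interferons themselves, were too dim to be tested.

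**Figure D4:**
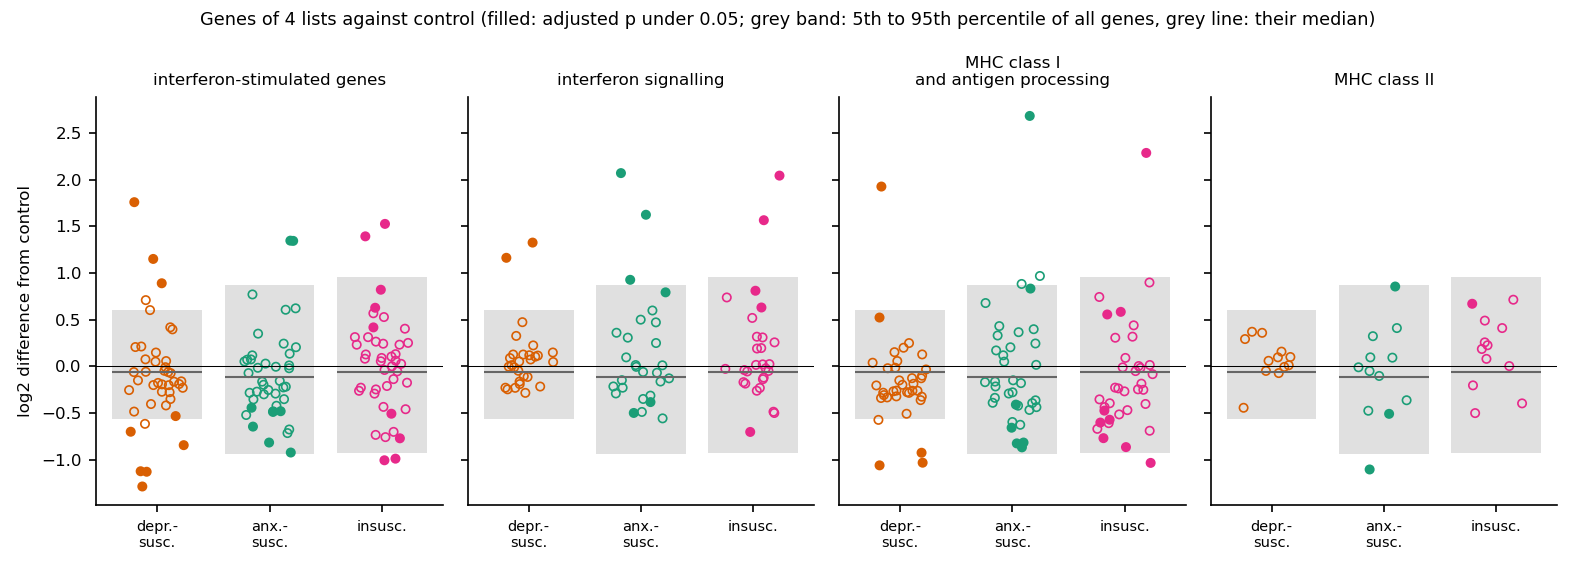
Log2 difference from control (y axis) of each measured gene of 4 lists (panels) in the 3 stressed groups (x axis); filled circles passed an adjusted p of 0.05, the grey band spans the 5th to 95th percentile of all genes and the grey line is their median. The interferon-stimulated genes spread to both sides of 0, and RT1-M1-2 is the highest point of the class I panel.

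Among 36 measured genes of class I presentation and antigen processing, 2 rose and 3 fell in the depression-susceptible group, 2 rose and 5 fell in the anxiety-susceptible group, and 3 rose and 6 fell in the insusceptible group, with medians of -0.23, -0.17 and -0.24. The shares that rose and fell were 5.56% and 8.33%, 5.56% and 13.9%, and 8.33% and 16.7% in the same order, near or below those of all genes in the last 2 groups. Median scaling gave 11, 19 and 21 falls, and with 1 sample left out 0, 0 to 2 and 0 to 1 falls stayed called. RT1-M1-2, another class I gene of the M region, had levels of -3.48, -2.73 and -3.12 in the depression-susceptible, anxiety-susceptible and insusceptible groups and -5.41 in control, and was well above background on all 16 arrays. It rose by 1.93 (SE 0.08), 2.69 (SE 0.10) and 2.29 (SE 0.10), calls that remained without any 1 of the slide-1 and slide-2 samples and under quantile normalization, median scaling and normexp. It moved in the direction of RT1-M1-4, and its control level was measured, not a bound. RT1-M6-1 and RT1-M6-2, also of the M region, fell by 1.03 and 0.93 in the depression-susceptible group (SE 0.15 and 0.13), calls that ended without any 1 of the slide-1 and slide-2 samples.

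RT1-A1, another classical class I gene, fell by 0.60 in the insusceptible group (SE 0.09), and its differences were -0.28 and -0.34 in the depression-susceptible and anxiety-susceptible groups (adjusted p = 0.096 and 0.059). Under quantile normalization these 3 were -0.19, -0.06 and 0.08, and 0 of them were called. Tap1, a subunit of the transporter that feeds peptides to class I molecules, fell by 0.77 in the insusceptible group (SE 0.12). Psmb10, an immunoproteasome subunit, fell by 0.82 and 0.86 in the anxiety-susceptible and insusceptible groups (SE 0.12 each); under quantile normalization the first of these was -0.48 and not called. Hfe, a class I-like protein that pairs with beta-2-microglobulin and governs iron uptake, fell by 1.06, 0.83 and 1.03 in the depression-susceptible, anxiety-susceptible and insusceptible groups (SE 0.10 to 0.12), and the first of these calls ended without any 1 of those samples. Of the 12 class II genes measured, 0 passed limma's threshold in the depression-susceptible group, 1 rose and 2 fell in the anxiety-susceptible group, and 1 rose and 0 fell in the insusceptible group. The anxiety-susceptible shares are 8.33% and 16.7%, beside 9.91% and 18.9% of all genes. The insusceptible shares are 8.33% and 0%, beside 12.2% and 16.5%. Normexp gave 4 and 6 rises in the last 2 groups and median scaling 6 and 4 falls.

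**Figure D5:**
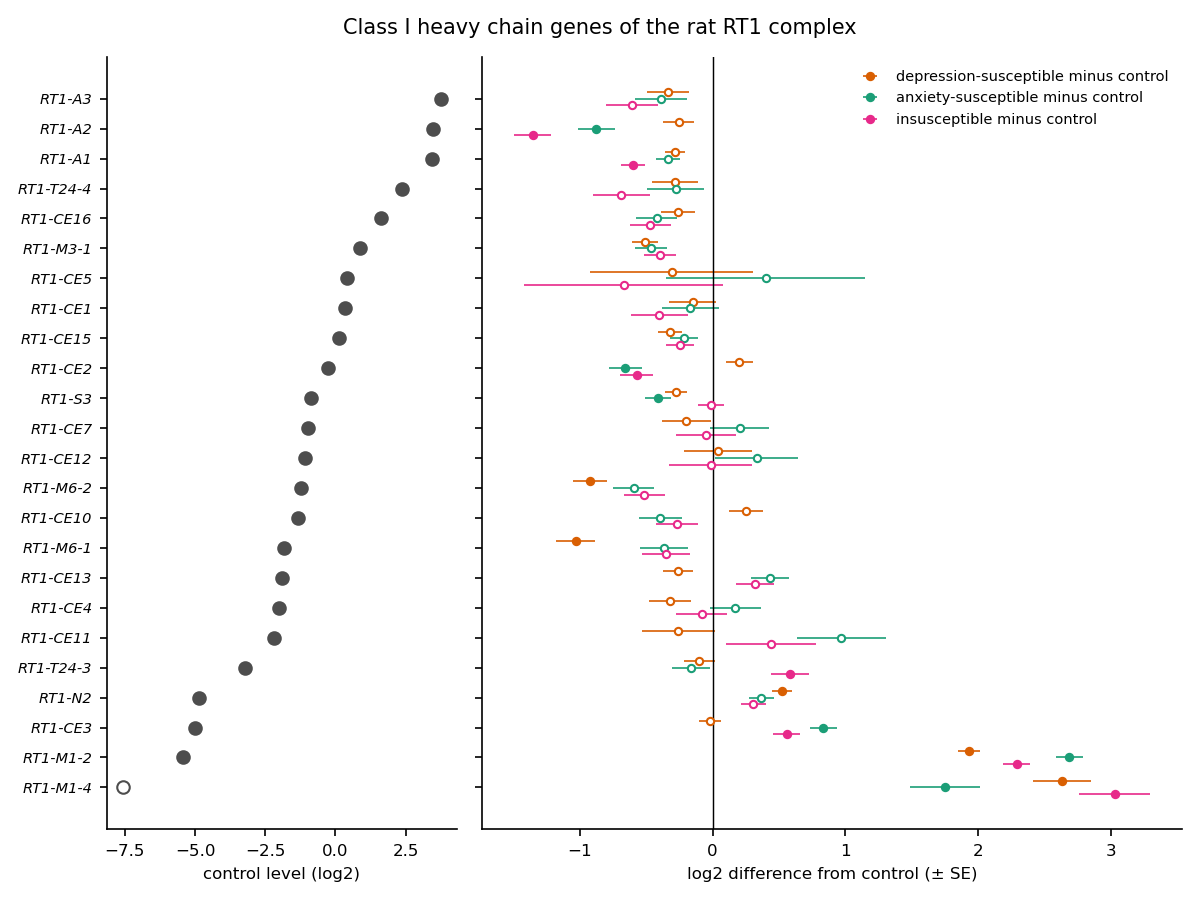
Control level (left, log2) and log2 difference from control with its SE (right) of class I heavy chain genes of the RT1 complex, ordered by control level; filled circles on the right passed an adjusted p of 0.05, and the open circle on the left was not well above background on any control array. RT1-M1-4 and RT1-M1-2 lie at the bottom and furthest to the right, and RT1-A3, RT1-A2 and RT1-A1 at the top lie left of 0. The order is that of probe signal and does not rank the genes by amount of RNA.

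Microglia, the resident immune cells that carry much of the brain's class I and interferon response, had lower summed marker levels in the stressed groups. The summed level of 14 microglia markers was 52.9 to 55.0 on depression-susceptible arrays, 51.3 to 52.7 on anxiety-susceptible arrays, 53.6 to 55.0 on insusceptible arrays and 64.6 to 68.8 on control arrays. Of the 14, 3 fell in the depression-susceptible group, 4 in the anxiety-susceptible group and 2 in the insusceptible group, and 0 rose in any. The falls are 21.4%, 28.6% and 14.3%, beside 3.90%, 18.9% and 16.5% of all genes. The counts under median scaling that follow come with the lower median of all probes given above. Median scaling gave 7, 12 and 13 falls, quantile normalization gave 1 rise in the anxiety-susceptible and 1 in the insusceptible group, and with 1 sample left out 1, 0 to 2 and 0 to 1 falls stayed called. Itgam, the integrin chain CD11b, fell by 1.91 in the depression-susceptible group (SE 0.12), and Csf1r, the receptor that keeps microglia alive, by 0.52 (SE 0.07); under quantile normalization Csf1r was at -0.20 and not called. Of the 8 lymphocyte markers tested 0 passed limma's threshold in the depression-susceptible and anxiety-susceptible groups. In the insusceptible group 1 rose and 2 fell (12.5% and 25%, beside 12.2% and 16.5% of all genes). Normexp gave 5 lymphocyte rises in each of the anxiety-susceptible and insusceptible groups. The 6 further markers were too dim to test. The hippocampal neuron markers on the array were all measured (13 of 13), with summed levels of 81.0 to 91.0 in the stressed groups and 96.2 to 110.1 in control. Of these, 3, 3 and 4 fell in the depression-susceptible, anxiety-susceptible and insusceptible groups (23.1%, 23.1% and 30.8%), and 1 rose in the last. Of 9 endothelial markers 0 fell in any group and 1 rose in the insusceptible group (11.1%, beside 12.2% of all genes). Median scaling gave 0, 8 and 4 falls, again with the lower median of all probes. Of 8 monocyte, neutrophil and border macrophage markers, 1 rose in the depression-susceptible group and 3 fell in the anxiety-susceptible group. These are 12.5% and 37.5%, beside 4.80% and 18.9% of all genes. With 1 sample left out the falls were no longer called, and the rise was lost in some fits. The part of these cell types in the differences of the interferon and antigen presentation genes was not tested.

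The genes whose levels over the 6 samples were most like those of the 7 genes came from many functions. By Pearson correlation among 11206 genes, Irf7 was nearest to Cmbl (0.990) and Kcnmb1 (0.987), Ifit1 to Mrpl35 (0.985), Ifi27 to Dydc2 (0.996), RT1-A2 to Gabrq (0.996), RT1-M1-4 to Pou5f1 (0.997), B2m to Dbnl (0.999) and Mx1 to C5h1orf50 (0.986). Between 20 (for Ifit1) and 439 (for B2m) genes correlated above 0.95 with one of the 7, in samples that share slides and scan days. Within the 7, RT1-A2 correlated with B2m at 0.86 and with Ifi27 at 0.85, Irf7 with Ifit1 at 0.75, and Ifi27 with RT1-M1-4 at -0.80.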

How the data were processed

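Per the file headers, the deposited intensity values came from Agilent Feature Extraction 11.0.1.1 on array design 026403, which had subtracted background within each array. The deposited value table holds the authors' log2 values, made by unnamed software, and was tried as an alternative. Probe names were matched to gene symbols through a RefSeq table of assembly GRCr8, used for names and promoters only. Control and outlier spots were left out, spots of a probe were averaged, and each array's log2 signal was set relative to its 75th percentile. Probes well above background on at least 4 of 16 arrays were kept (17885), and the brightest stood for a gene. No spot was saturated (0 over all arrays); the number of arrays limits the precision.

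Arrays of a group on a slide were averaged to 6 samples and fitted with limma 3.58.1 in R 4.3.3 (2 residual degrees of freedom, 7 comparisons, two-sided moderated tests, Benjamini-Hochberg over the probes kept, threshold 0.05). The genes and lists were chosen with earlier results of these data known. List genes were named from the 3 with the largest differences per list, in the depression-susceptible and in the mean stressed comparison with control. Some of these genes are not named: Irf8, P2ry12, those of class II and those of the marker lists other than microglia. Others named from the lists (Isg15, Ube2l6, Cxcl10, Rtp4, Ifnar1, RT1-A1, RT1-M6-2, Tap1, Ttr) were chosen after their values were seen. The correlates were those with the highest Pearson r. The normexp alternative used median signals, with an offset of 50, and local backgrounds marked as outliers were set to the array's median, because on 2 arrays a spot's local background reached 129047 and 42337 units. The fit was tested on simulated data. Alternatives were other scalings, normexp, no filter on dim probes, the deposited table, slide or replicate blocks, and leaving out arrays or samples. Plots were drawn with Python 3.11.15, pandas 2.3.3, numpy 2.4.6 and matplotlib 3.10.9.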

Additional observations from a re-analysis of the deposited data

Results flagged for a closer look

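Irf7 had 1 control array apart from the others: the gap of the highest control array to the next, divided by the range of the 4, was 0.893. This was the only such array among 28 sets of 4 arrays (7 genes in 4 groups), where chance marks about 1 in 20. Irf7 in the insusceptible group lay 0.26 above control on all 4 arrays while all depression-susceptible and anxiety-susceptible arrays lay below it; the difference of those differences passed in neither comparison of stressed groups (adjusted p = 0.075 and 0.18). Ifit1 lay 1.16 above control in the insusceptible group and below control in both others, and the anxiety-susceptible minus insusceptible difference of -2.95 was called (adjusted p = 0.033). That call ended under normexp, and the probe was well above background on 1 of the 4 anxiety-susceptible arrays. Mx1 lay 0.22 above control in the anxiety-susceptible group and below control in the depression-susceptible group, a difference that was not called (adjusted p = 0.096).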

How the results depend on the processing

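With 16 arrays as separate samples, the probes called for the depression-susceptible, anxiety-susceptible and insusceptible groups and the mean stressed group against control were 9073, 12751, 13061 and 12605, in place of 1770, 5366, 5401 and 6506, and the depression-susceptible minus insusceptible, anxiety-susceptible minus insusceptible and depression-susceptible minus anxiety-susceptible counts were 11079, 6638 and 11061, in place of 15, 14 and 41. With replicate number as a block these 7 counts were 8555, 12414, 12697, 12243, 10552, 5772 and 10560; samples with the same number did not deviate together (median r 0.008, lowest -0.55), so the numbers do not pair the arrays. Slide as a block gave 6846 for the depression-susceptible group. Array median scaling gave 4044, 9605, 9671 and 10440 against control, and 3461 and 3323 for the depression-susceptible group against the insusceptible and anxiety-susceptible groups, and it moved the median of all probes to -0.21, -0.43, -0.43 and -0.35 against control. Normexp gave 9671, 9709 and 10104 for the last 3 against control, and 7020 and 6973. Between stressed groups quantile normalization gave 885, 64 and 1849, and values as deposited gave 398, 48 and 1480. Without the filter on dim probes the counts were 910 and 2295 for the depression-susceptible and anxiety-susceptible groups against control, and 3979, 0 and 5 between stressed groups. The causes were not tested.

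Leaving out 1 array gave 1553 to 1770, 4711 to 5458, 4692 to 5536 and 5986 to 6578 probes against control and 9 to 15, 11 to 21 and 20 to 49 between stressed groups. Leaving out a control or depression-susceptible sample gave 391 to 550, 779 to 2175, 927 to 2380 and 1297 to 3697, and 0 between stressed groups. A fit on slides 1 and 2 only, added after seeing the data, gives the depression-susceptible minus control values by construction, since the other groups hold 1 sample each.

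Among the 7 genes, these differences changed sign. B2m in the depression-susceptible group against control was 0.060 under quantile normalization and 0.062 in the deposited table. Mx1 against control was -0.076 under quantile normalization and -0.030 in the deposited table for the insusceptible group, and -0.077 and -0.051 for the mean stressed group. Under median scaling Mx1 was -0.16, -0.31 and -0.27 for the anxiety-susceptible, insusceptible and mean stressed groups, Irf7 was -0.18 for the insusceptible group, B2m was 0.021 for anxiety-susceptible minus insusceptible, and Ifi27 was 0.037 for depression-susceptible minus anxiety-susceptible. Under normexp Ifit1 was 0.14 for the mean stressed group against control and -0.16 for depression-susceptible minus anxiety-susceptible, where RT1-M1-4 was -0.24. Of the other values of the 7 genes under an alternative, 1180 kept direction and call, 61 lost the call and 88 gained it. Signal over background limits Ifit1 in the anxiety-susceptible group and RT1-M1-4 in control.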
